A study of Mus musculus with 18 samples.

Results

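Norrin is a secreted cystine-knot protein that binds the receptor Frizzled-4, and its signal reaches the nucleus through beta-catenin as that of a canonical Wnt ligand does. The set described here holds 9 genes of this route, namely the ligand gene Ndp, the receptor gene Fzd4, the coreceptor genes Lrp5 and Lrp6, the receptor-associated tetraspanin gene Tspan12, the beta-catenin gene Ctnnb1, the nuclear factor gene Lef1 and the target genes Axin2 and Apcdd1. They were taken by name, as all probe sets whose annotation gave 1 of these symbols alone. This gave 19 probe sets among 36701 on the 3 chips, and 9 genes among the 15964 that had a probe set with 1 symbol. Of the 19, 13 lay on chip A, 4 on chip B and 2 on chip C, and 4 of the genes had 1 probe set.

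In the retina, Norrin is made by Müller glia, and Frizzled-4 on endothelial cells receives it. Without ligand, a cytoplasmic complex that contains Axin and APC marks beta-catenin for destruction. Ligand binding to Frizzled and LRP5 or LRP6, aided by TSPAN12 in the case of Norrin, stops this, and beta-catenin enters the nucleus and joins TCF/LEF factors at target genes. Loss of the human NDP, FZD4, LRP5 or TSPAN12 gene leaves the retina poorly vascularised, as in Norrie disease and familial exudative vitreoretinopathy.

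Cells were sorted from dissociated, pooled retinas of homozygous Tie2-GFP mice of the strain FVB/N at postnatal day 8. The GFP-positive population stands for the endothelium, since the Tie2 promoter is active there, though also in some cells of the blood lineages, and the GFP-negative population stands for all other retinal cells of the same transgenic animals. FVB/N mice carry a retinal degeneration allele of Pde6b, which both populations share. Amplified RNA of each population was hybridised to Affymetrix MGU74v2 chips A, B and C, with 3 arrays for each population and chip and 18 in all. The labels do not say that these arrays came from separate animals or sorts, so the p-values measure the spread between arrays, which may be technical.

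Of 10 endothelial marker genes, 8 were higher in GFP-positive cells, against 9.42% of all genes measured, while Kdr and Pecam1 did not pass the test. Kdr was bright in both populations, with a mean of 2235 in GFP-positive and 2245 in GFP-negative cells. Pecam1 was much dimmer, at 50.2 and 52.6. The source of the Kdr signal in GFP-negative cells was not tested. GFP-positive replicate 3 stood apart from the rest: its Spearman rank correlations with the other arrays of its population were 0.911 to 0.929, against 0.960 to 0.987 for the remaining pairs within a population. Results that rest on that array are given with and without it. Array medians lay between 32.5 and 44.6 intensity units, and no detection calls were used here, so a dim intensity may be background. Throughout, a difference is the log2 of intensity plus 16 in GFP-positive cells less that in GFP-negative cells, tested with limma over all probe sets of the chip. It passed the test at a Benjamini-Hochberg adjusted p under 0.05, and its 95% interval is not adjusted.

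Upstream sequences from RefSeq (GRCm38.p6) were used for 6 of the 9 genes, and none was used for Lrp5, Lrp6 and Apcdd1. Windows on the chromosome of Apcdd1 were set aside for the members, though kept in the count over all RefSeq windows. The 250 bases before the annotated start are printed for the ligand gene and for Fzd4, Lef1 and Axin2, to set both sides next to each other. These 3 genes differed the other way, as did Apcdd1, for which no sequence is printed. They run 5′ to 3′ on the strand of the gene, and capitals mark a match to the TCF/LEF core, searched on both strands as the letters CTTTGAA or else CTTTGAT or else CTTTGTA or else CTTTGTT.
Ndp, chrX:16911775-16912024, minus strand: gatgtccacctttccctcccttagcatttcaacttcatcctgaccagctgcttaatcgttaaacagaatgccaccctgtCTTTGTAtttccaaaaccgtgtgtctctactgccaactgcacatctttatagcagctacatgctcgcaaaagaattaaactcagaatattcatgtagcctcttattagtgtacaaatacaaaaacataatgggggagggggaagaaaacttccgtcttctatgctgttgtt
Fzd4, chr7:89404116-89404365, plus strand: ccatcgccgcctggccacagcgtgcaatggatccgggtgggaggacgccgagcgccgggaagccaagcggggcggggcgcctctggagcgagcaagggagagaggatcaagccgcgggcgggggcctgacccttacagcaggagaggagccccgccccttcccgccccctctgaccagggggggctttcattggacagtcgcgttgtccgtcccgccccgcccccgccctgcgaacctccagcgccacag
Lef1, chr3:131110047-131110296, plus strand: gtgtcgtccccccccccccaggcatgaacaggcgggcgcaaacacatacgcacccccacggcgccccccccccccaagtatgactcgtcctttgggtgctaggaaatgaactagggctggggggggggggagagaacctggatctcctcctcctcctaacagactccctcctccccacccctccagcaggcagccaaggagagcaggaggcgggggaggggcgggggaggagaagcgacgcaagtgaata
Axin2, chr11:108920099-108920348, plus strand: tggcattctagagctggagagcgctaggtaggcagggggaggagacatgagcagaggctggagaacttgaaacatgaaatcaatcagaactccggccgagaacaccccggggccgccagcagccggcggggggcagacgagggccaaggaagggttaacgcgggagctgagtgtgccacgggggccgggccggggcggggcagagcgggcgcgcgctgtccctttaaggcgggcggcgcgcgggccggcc
The Ndp window held 1 core, CTTTGTA, which began 171 bases before the start. The windows of Fzd4, Axin2, Tspan12 and Ctnnb1 and the window at the first Lef1 start held no such letters, and 1 core lay before the last of 4 annotated Lef1 starts, on the opposite strand. Over all 32851 RefSeq windows of this length, 14.8% held a core. The windows differed in base composition: the Ndp window had a GC content of 41.2% and 4 CpG dinucleotides, that of Fzd4 had 72.8% and 25, that of Axin2 69.2% and 24 and that at the first Lef1 start 66.4% and 11, against a median over all windows of 52.4% and 6. The sides of the pathway were not set apart by this, since the Tspan12 window was close to that of Ndp, at 42% and 5. Lef1 windows 3 and 4 had 50.8% and 6 and 44.8% and 5, and Ctnnb1 windows 1 and 2 had 74.8% and 35 and 74.4% and 43. These are descriptions of the letters and were not tested against expression.

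The ligand and the receptor side lay on opposite sides of the sort. Ndp was lower in GFP-positive cells, whereas Fzd4, Lef1, Axin2 and Apcdd1 each had at least 1 probe set that was higher, and Lrp5, Lrp6, Tspan12 and Ctnnb1 had none that passed. On chip A, 4 of 13 member probe sets were higher and 1 was lower, where 9.09% and 9.25% of all probe sets of that chip were. On chip B, 4 of 4 were higher, against 9.60% of the chip. On all chips 8 were higher and 1 lower, against 7.42% and 8.86%. On chip C neither of the 2 passed in limma, where 3.40% of the chip was higher and 5.88% lower, and 1 was higher at an unadjusted p under 0.05. Probe sets of 1 gene share a target, so these counts are not of independent genes. The median difference of the members was 0.22 on chip A, 1.02 on chip B and 0.12 on chip C, against 0.01, 0.09 and 0.05 over all probe sets of these chips. GFP-positive and GFP-negative arrays were fully separate for 12 of the 19 probe sets, 11 of them higher, against 37.3% of all probe sets in either direction. Without GFP-positive replicate 3, more probe sets of each chip passed, and 9 of the members were higher and 1 was lower. These were 4 higher and 1 lower on chip A (14.0% and 13.9% of the chip), 4 higher on chip B (11.9%, with 13.4% lower) and 1 higher on chip C (13.1%, with 11.9% lower).

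**Figure D1:**
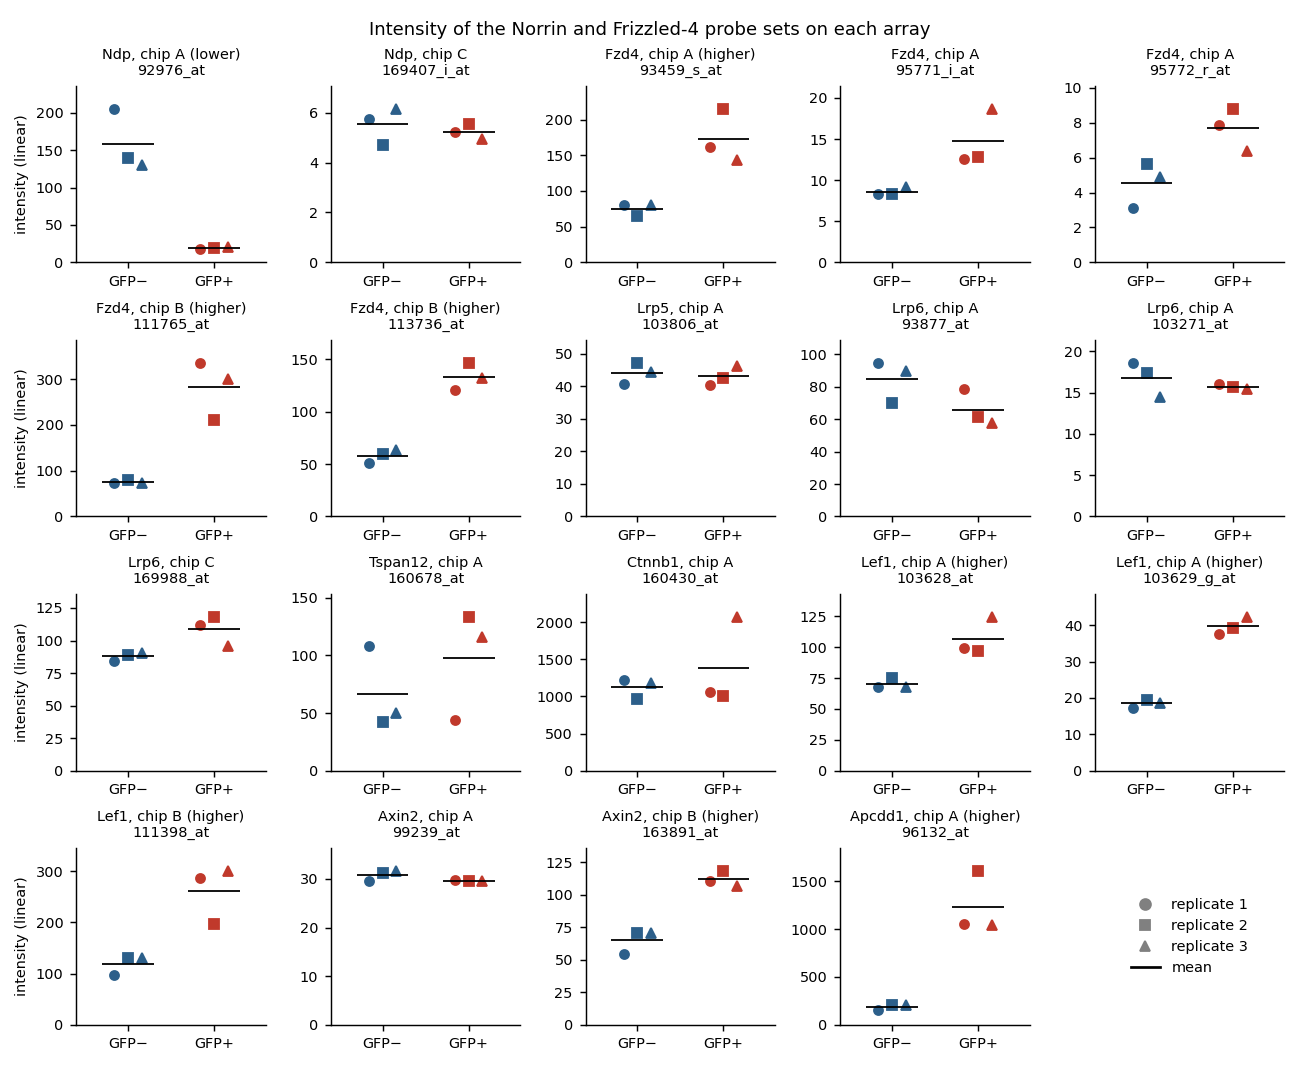
Linear intensity of each of the 19 probe sets on each array, 1 panel per probe set, with the GFP-negative arrays in blue, the GFP-positive arrays in red, a symbol for each replicate and a line at the mean of 3 arrays. Ndp on chip A sits near 19 on the GFP-positive arrays and above 130 on the GFP-negative arrays, while the brighter Fzd4, Lef1, Axin2 and Apcdd1 probe sets lie higher on every GFP-positive array.

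Ndp encodes Norrin. On chip A its intensity was 206, 140.1 and 130.3 on GFP-negative replicates 1, 2 and 3, and 18.0, 19.1 and 19.8 on GFP-positive replicates 1, 2 and 3. Each GFP-negative array was well above each GFP-positive array, and the GFP-positive arrays were nearly alike. The means were 159 ± 40.9 and 19.0 ± 0.898 (SD, n = 3 arrays each, as for every mean below), a ratio of 8.36 in favour of GFP-negative cells. The log2 difference was -2.30 (SE 0.16, 95% interval -2.70 to -1.89, adjusted p = 0.000487, limma), and 1.98% of the probe sets of the chip differed at least as much in either direction. Since the GFP-positive values were dim, the size of this difference depends on the pseudocount: it was -2.97 with 1 and -1.41 with 64. In such bulk populations, fewer cells that make a transcript and less transcript per cell cannot be told apart.

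A second Ndp probe set, on chip C, was a reduced design with fewer probes, as its suffix _i_at marks. It read 5.75, 4.71 and 6.16 on the GFP-negative and 5.23, 5.56 and 4.93 on the GFP-positive arrays, brighter than 2.60% of the probe sets of its chip. The populations overlapped, and the difference was -0.02 (95% interval -0.17 to 0.13, adjusted p = 0.886). The sign of this value turned without GFP-negative replicate 3 (0.0010) and under quantile normalization (0.0110).

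Some markers of glia and of neurons were lower in GFP-positive cells, as Ndp was. Over all genes measured, 11.2% were lower and 9.42% higher. Of 9 Müller glia markers measured, 6 were lower in GFP-positive cells and none was higher by limma, nor at an unadjusted p under 0.05. The intensities of the 8 on chip A summed to between 4416 and 6527 on the GFP-negative arrays and between 875 and 2157 on the GFP-positive arrays, the highest of these on GFP-positive replicate 3 (875 and 1369 on GFP-positive replicates 1 and 2). No marker read 0 on any chip A array, but a dim value may be background, so this does not show that the cells were present. Astrocyte markers were lower for 2 of 5, Pdgfra and Aqp4 (the latter is in the Müller glia list too), and their sums were 169 to 211 on GFP-positive and 425 to 910.2 on GFP-negative arrays. Bipolar and amacrine cell markers were lower for 2 of 5, Pax6 (-3.82) and Prkca (-3.77), with sums of 185 to 336 on GFP-positive and 1105 to 1549 on GFP-negative arrays. Rod and cone markers were lower for 2 of 6, Sag (-2.37) and Nrl (-0.38), with sums of 320 to 558 and 623 to 1237. Lower values thus occurred in glial and neuronal lists, but most markers outside the Müller glia list did not pass. These were 3 of 5 for astrocytes, 3 of 5 for bipolar and amacrine cells and 4 of 6 for rods and cones. The median differences of these lists were 0.0045, -0.07 and -0.19. The part of any of these cell types in the Ndp difference was not tested.

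Fzd4 encodes Frizzled-4, the receptor for Norrin, and had 5 probe sets. The brightest, on chip B, read 336, 211 and 299.7 on GFP-positive replicates 1, 2 and 3 and 73.9, 78.7 and 72.2 on GFP-negative replicates 1, 2 and 3. The GFP-positive arrays were all higher, with the more scattered values. The means were 282 ± 64.1 and 74.9 ± 3.39, and the log2 difference was 1.69 (SE 0.17, 95% interval 1.29 to 2.09, adjusted p = 0.000776).

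The other Fzd4 probe set on chip B read 120.3, 146 and 132 on the GFP-positive and 50.6, 59.2 and 63.2 on the GFP-negative arrays, a difference of 1.02 (95% interval 0.75 to 1.28, adjusted p = 0.00123). On chip A, 93459_s_at read 161, 215 and 143 against 80.4, 64.9 and 80.0, a difference of 1.04 (95% interval 0.65 to 1.43, adjusted p = 0.00768). These 3 probe sets passed with each single array left out, and none of their arrays overlapped between populations. GFP-positive replicate 2 was the highest of its population on 93459_s_at and 113736_at and the lowest on 111765_at, so the scatter was not shared by the probe sets.

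A pair of further Fzd4 probe sets on chip A, taken from 1 sequence record, were dim. The suffix _i_at again marks the first as a design with fewer probes, and _r_at marks the second as one whose probes were picked with some selection rules dropped. 95771_i_at read 12.6, 12.9 and 18.7 against 8.28, 8.36 and 9.16 (difference 0.31, 95% interval 0.08 to 0.55, adjusted p = 0.0764), and 95772_r_at read 7.87, 8.80 and 6.40 against 3.09, 5.62 and 4.87 (difference 0.21, 95% interval 0.01 to 0.41, adjusted p = 0.149). On both, every GFP-positive array was above every GFP-negative array, and neither passed the test. They were brighter than 8.58% and 2.51% of the probe sets of the chip, where a pseudocount of 16 compresses differences. With a pseudocount of 1 the differences were 0.69, which passed (adjusted p = 0.0331, over a range of 0.0315 to 0.213 among all alternatives), and 0.67, which did not.

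**Figure D2:**
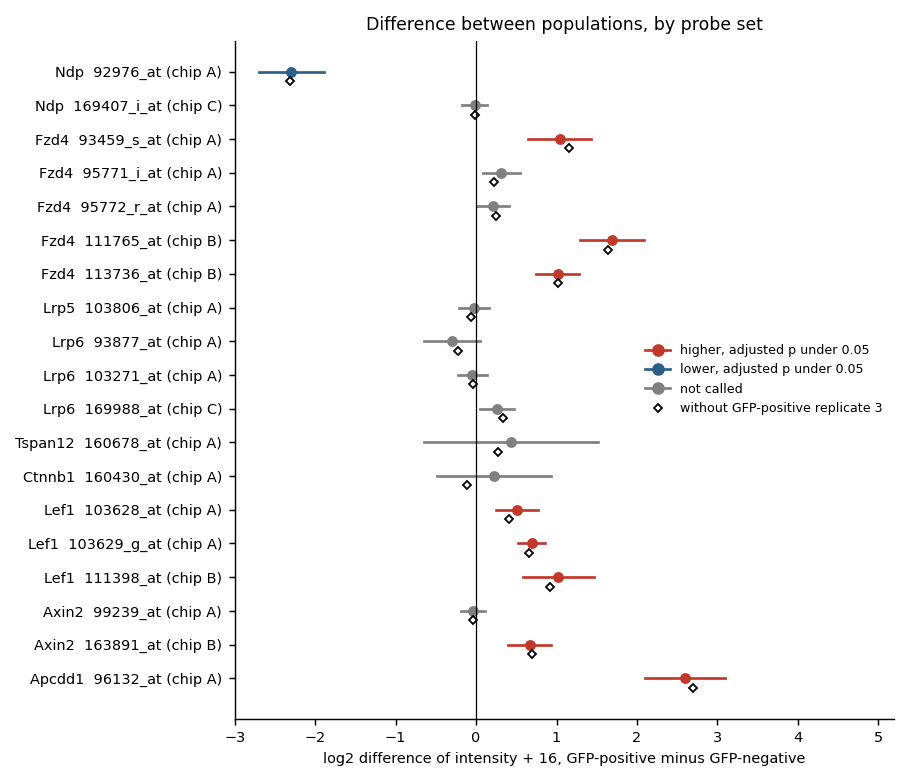
Log2 difference of intensity plus 16 (GFP-positive minus GFP-negative) for each probe set, with its 95% interval from limma as a bar, coloured by the result of the test. Open diamonds are the same difference without GFP-positive replicate 3, with the largest shift at Ctnnb1, where the difference goes from 0.22 to -0.11.

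Ligand and receptor could be set against each other within an array on chip A, which holds both. The log2 value of Fzd4 (93459_s_at) less that of Ndp was 2.38, 2.72 and 2.15 on GFP-positive replicates 1, 2 and 3 and -1.20, -0.95 and -0.61 on GFP-negative replicates 1, 2 and 3. The zero of this scale has no meaning, because probe sets differ in brightness for the same amount of RNA, and only its change between populations was compared. That change was 3.34, from a mean of -0.92 ± 0.30 in GFP-negative to 2.42 ± 0.29 in GFP-positive cells. It is the sum of the sizes of the separate Fzd4 and Ndp differences, so it adds no independent evidence, and an exact permutation test of 3 arrays against 3 cannot give a two-sided p under 0.10, the value found here. The change ranged from 3.18 to 3.49 with single arrays left out, and was 4.15 with a pseudocount of 1 and 2.17 with 64.

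**Figure D3:**
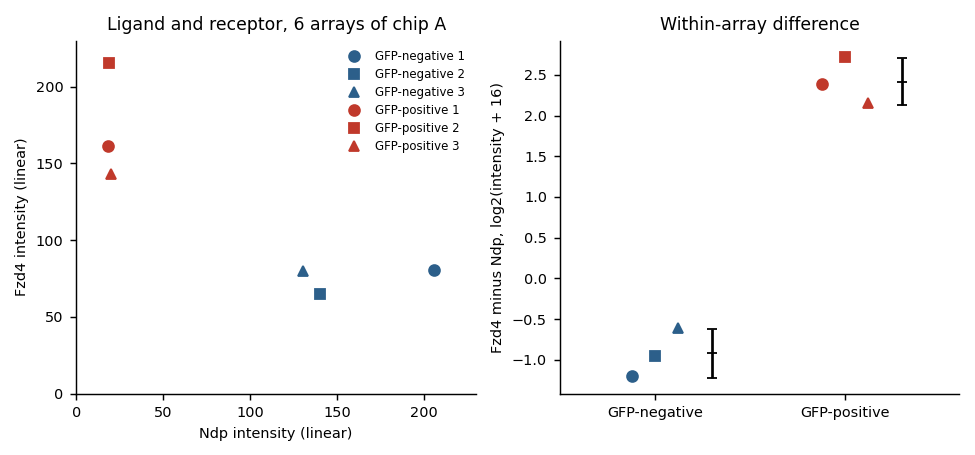
Left, linear intensity of Ndp against that of Fzd4 (93459_s_at) on the 6 arrays of chip A; right, the log2 value of Fzd4 less that of Ndp on each array, with mean and SD as bars. The GFP-negative arrays lie at high Ndp and low Fzd4, the GFP-positive arrays at low Ndp and higher Fzd4, and the within-array differences of the populations do not overlap.

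LRP5 and LRP6 are the coreceptors that Frizzled proteins need for beta-catenin signalling. Lrp5 read 40.6, 42.6 and 46.2 on the GFP-positive and 40.7, 47.2 and 44.3 on the GFP-negative arrays, and the populations overlapped throughout. Its difference of -0.02 had a 95% interval of -0.21 to 0.16 (adjusted p = 0.880), that is a ratio between 0.864 and 1.12 on this scale. The sign turned without GFP-positive replicate 1 or GFP-negative replicate 2. The intensity lay near the array median, where background and transcript are hard to separate.

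Lrp6 had 3 probe sets that did not point the same way. On chip A, 93877_at read 78.8, 61.1 and 57.5 in GFP-positive and 94.7, 70.1 and 89.7 in GFP-negative cells, with overlap and a difference of -0.30 (95% interval -0.65 to 0.05, adjusted p = 0.222), and 103271_at was dim in both at 15.7 ± 0.335 and 16.8 ± 2.12 (-0.05, adjusted p = 0.734). On chip C, 169988_at read 112, 118 and 95.5 in GFP-positive and 84.4, 88.5 and 90.3 in GFP-negative cells, without overlap. Its difference of 0.26 (95% interval 0.04 to 0.48, adjusted p = 0.144) did not pass. Without GFP-positive replicate 3, the lowest of its population, it was 0.34, past the threshold (adjusted p = 0.0190, over a range of 0.00688 to 0.372 among all alternatives).

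TSPAN12 is a tetraspanin that strengthens Norrin signalling through Frizzled-4. Its 1 probe set read 43.7, 133 and 116 on GFP-positive replicates 1, 2 and 3 and 108, 42.5 and 49.7 on GFP-negative replicates 1, 2 and 3. In each population the arrays split, with GFP-positive replicates 2 and 3 and GFP-negative replicate 1 high and the other 3 low. The difference of 0.43 (SE 0.44, adjusted p = 0.584) had an interval of -0.65 to 1.52, or a ratio of 0.638 to 2.86, so these arrays give little information on Tspan12 in either direction.

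Beta-catenin is both the transducer of the signal and a part of cadherin junctions. Ctnnb1 was bright at 1066, 1012 and 2069.8 in GFP-positive and 1225, 967 and 1187 in GFP-negative cells. GFP-positive replicate 3 was the highest of the 6 arrays, and the other 5 lay within 967 to 1225. The difference was 0.22 (SE 0.29, 95% interval -0.49 to 0.93, adjusted p = 0.679) with all arrays and -0.11 (95% interval -0.41 to 0.20, adjusted p = 0.550) without that array, over a range of 0.511 to 0.973 among all alternatives.

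LEF1 is the TCF/LEF factor that joins beta-catenin on DNA, and its gene is itself a target of the pathway. All 3 Lef1 probe sets were higher in GFP-positive cells, with no overlap. On chip B, 111398_at read 287, 196 and 300.1 in GFP-positive and 97.8, 129.8 and 129.9 in GFP-negative cells, and differed by 1.02 (SE 0.19, adjusted p = 0.0103). The chip A probe set 103629_g_at read 37.7, 39.3 and 42.3 against 17.3, 19.6 and 18.6 (difference 0.69, SE 0.07, adjusted p = 0.00149). The third probe set, 103628_at, from the same sequence record as the latter, read 99.0, 96.9 and 124 against 67.4, 75.1 and 67.8 (difference 0.51, SE 0.11, adjusted p = 0.0238). Its call ended without GFP-negative replicate 1, 2 or 3 (adjusted p of 0.0933, 0.0559 and 0.0967, over a range of 0.00505 to 0.0967 among all alternatives), while the others kept theirs with each array left out.

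Axin2 encodes a scaffold of the destruction complex and is induced by the pathway that it restrains. On chip B, 163891_at read 111, 118 and 107 in GFP-positive and 54.3, 70.6 and 70.5 in GFP-negative cells. The populations did not overlap, and the difference was 0.66 (SE 0.11, 95% interval 0.39 to 0.94, adjusted p = 0.00789). On chip A, 99239_at stayed within 29.5 to 31.6 on all 6 arrays (difference -0.04, 95% interval -0.19 to 0.11, adjusted p = 0.745) and was brighter than 29.1% of the probe sets of its chip. The probe sets of Axin2 thus disagreed, and only the brighter one passed.

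APCDD1 is a membrane glycoprotein that inhibits Wnt signalling and is induced by it. Apcdd1 showed the largest rise among the 9 genes, while the order of its difference and that of Ndp depended on the pseudocount (2.59 against -2.30 with 16, and 2.69 against -2.97 with 1). Its GFP-positive arrays read 1059, 1607 and 1046 and its GFP-negative arrays 154, 208 and 205. The lowest GFP-positive array thus lay well above the highest GFP-negative array. The means were 1237 ± 320.0 and 189 ± 30.1, a ratio of 6.55, and the log2 difference was 2.59 (SE 0.20, 95% interval 2.09 to 3.09, adjusted p = 0.000640). Among the probe sets of chip A, 1.47% differed at least as much. The call held with each array left out, with differences from 2.39 to 2.70.

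Markers of other cell types that the GFP-positive gate could hold were also read. For comparison, 9.42% of all genes measured were higher and 11.2% lower. Of 10 microglia and leukocyte markers, 2 were higher in GFP-positive cells, Lcp1 and C1qb, and none was lower, also at an unadjusted p under 0.05. These markers summed to 1273 to 2587 on GFP-positive and 404 to 438 on GFP-negative arrays. The highest sum was on GFP-positive replicate 3, with 1334 and 1273 on GFP-positive replicates 1 and 2. Lcp1 alone had means of 1047 ± 194 in GFP-positive and 20.1 ± 4.94 in GFP-negative cells. Of the 8 that did not pass, Csf1r was the most scattered, at 336 ± 514 against 105 ± 9.35. The median difference of the list was 0.11. None of 7 pericyte markers passed in limma in either direction, with 1 lower at an unadjusted p under 0.05, and their sums overlapped, at 168 to 260 and 210.1 to 249 over the 6 on chip A. Of 5 ganglion cell markers, Sncg was higher (0.70, adjusted p = 0.0357) and none was lower, with 2 higher and none lower at an unadjusted p under 0.05, and the sums of the 4 on chip A were 214 to 277 on GFP-positive and 143 to 173 on GFP-negative arrays, without overlap. No marker of these lists on chip A read 0, but a dim value may be background, so this does not show that the cells were present. Their part in the rises of Fzd4, Lef1, Axin2 and Apcdd1 was not tested.

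The nearest profiles on the same chip were sought as the smallest Euclidean distance between the 6 log2 values of a probe set, each less its own mean. For Ndp these were Gldc, the glycine decarboxylase of the glycine cleavage system, with a GFP-positive mean of 26.2 ± 1.40 and a GFP-negative mean of 196 ± 43.5 (distance 0.07), Cyp1b1, a cytochrome P450, at 16.9 ± 1.56 against 153 ± 46.7 (0.12), and the peptide transporter gene Slc15a2 at 19.9 ± 0.957 against 174 ± 52.0 (0.24). For Fzd4 on chip B they were Samd9l (0.34), Stard5 (0.36) and Pgm5 (0.38), with differences of 1.87, 1.74 and 1.72. For Apcdd1 they were the matrix protein gene Tgfbi (0.35), Tnfaip8l1 (0.41) and Srgn, which encodes the proteoglycan serglycin (0.46), with differences of 2.67, 2.45 and 2.40. The distances describe 6 arrays in 2 populations and carry no test.

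The rest of the pathway was read from 7 lists of 114 genes, of which 103 were measured, each by 1 probe set. Over the 15964 genes measured in this way, 9.42% were higher and 11.2% lower, with a median difference of 0.04. Of the 103, 16 were higher and 10 lower, with a median of 0.04. The lists overlap slightly, and differences between lists were not tested.

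Genes known to respond to Norrin or Wnt in endothelium were mostly higher. Of 11 measured, 9 were higher and none lower in limma, against 9.42% and 11.2% of all genes. At an unadjusted p under 0.05 these were 11 and none, and the median difference was 2.98. The tight junction gene Cldn5 differed by 6.21 (adjusted p = 2.68e-05), the amino acid transporter gene Slc38a5 by 3.95 (4.65e-05), the transcription factor gene Sox18 by 3.51 (0.000107) and the lipid transporter gene Mfsd2a by 3.02 (6.62e-05). Many of these are also general endothelial genes (Cldn5 is in the endothelial marker list too), so the list does not separate the pathway from cell identity. The glucose transporter gene Slc2a1 did not pass at 149 ± 41.5 against 74.5 ± 24.4 (0.86, adjusted p = 0.0847), but did when GFP-positive replicate 1 was left out (1.09). Plvap, the fenestral diaphragm gene that Norrin signalling is known to hold down, was singled out after its values were seen: it read 117, 128 and 76.1 in GFP-positive and 57.6, 69.5 and 85.6 in GFP-negative cells and did not pass (0.49, adjusted p = 0.140), and it was higher without GFP-positive replicate 3 (0.68).

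General Wnt target genes were mostly not called. Tnfrsf19, a TNF receptor family gene, was the 1 of 10 that was higher, at 64.3 ± 2.89 against 39.9 ± 3.88 (0.52, adjusted p = 0.00711), and none was lower in limma. Over all genes, 9.42% were higher and 11.2% lower. At an unadjusted p under 0.05, 3 of the list were higher and 1 was lower. The list's median was 0.11. Myc, Lgr5, Dkk1, Rnf43 and Nkd2 read below the array medians in both populations, so their values may be background. Notum, which encodes a lipase that inactivates Wnt proteins, did not pass at 295 ± 24.7 against 235 ± 62.2. Nkd1, a feedback inhibitor singled out after its values were seen, read 34.0, 33.4 and 498 in GFP-positive and 83.6, 109.5 and 69.7 in GFP-negative cells. GFP-positive replicate 3 read it far above all other arrays, and without that array Nkd1 was lower (-1.04, adjusted p = 0.00405, against 0.08 and an adjusted p of 0.958 with it).

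Among other Wnt receptors and membrane regulators, 2 of 20 were higher and 3 lower, against 9.42% and 11.2% of all genes. The median was -0.02. Fzd5, a Frizzled of the developing neural retina, was lowest at 66.8 ± 21.2 against 1775 ± 311 (-4.45, adjusted p = 4.21e-05), followed by Fzd3 (-2.01) and the R-spondin receptor gene Lgr4 (-1.85). Lrp4, a relative of the coreceptor genes, was higher by 1.64 (adjusted p = 0.0129), which no longer passed when GFP-negative replicate 2 was left out, and Adgra2, the coreceptor for Wnt7 ligands also known as Gpr124, by 0.96 (adjusted p = 0.00499). Reck, its partner, did not pass at 206 ± 99.7 against 414 ± 109 (-1.02, adjusted p = 0.116) and was lower without GFP-positive replicate 2. Fzd1, Fzd2, Fzd6, Fzd7, Fzd8, Fzd9 and Fzd10 did not pass, and Fzd6 was lower without GFP-positive replicate 3 (-0.34). All of these but Fzd6 read near or below the array medians in both populations, so their values may be background. They ran from Fzd1 at 14.6 ± 0.80 against 15.5 ± 2.08 to Fzd7 at 43.3 ± 4.04 against 40.0 ± 1.28.

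**Figure D4:**
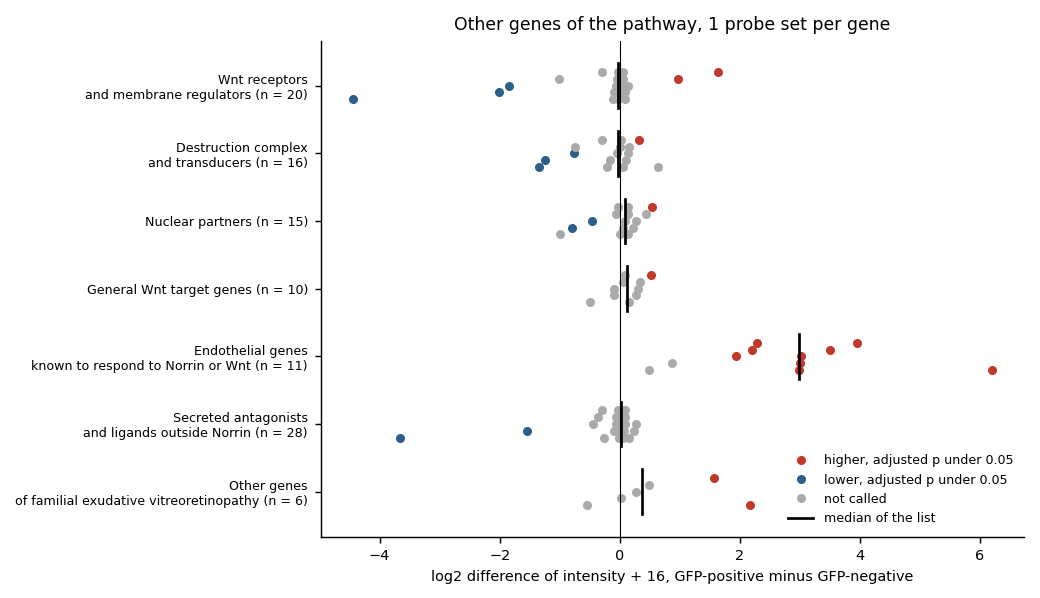
Log2 difference of intensity plus 16 (GFP-positive minus GFP-negative) of each gene in the 7 pathway lists, 1 point per gene and probe set, coloured by the limma result, with a bar at the list's median. The endothelial responsive genes centre on 2.98, while the medians of the other lists lie between -0.02 and 0.38.

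Of 16 genes of the destruction complex and its transducers, 1 was higher and 3 were lower, against 9.42% and 11.2% of all genes. The median was -0.02. The kinase genes Gsk3b (-1.35, adjusted p = 0.0103) and Csnk1e (-1.24, adjusted p = 0.00679) and the tankyrase gene Tnks (-0.76, adjusted p = 0.0327) were lower, and Dvl3, a Dishevelled gene, was higher by 0.31 (adjusted p = 0.0257). The Dvl3 call ended without any 1 array other than GFP-positive replicate 3, and that of Tnks without GFP-positive replicate 2 or any 1 GFP-negative array. The brightest gene that did not pass was Csnk1a1, casein kinase 1 alpha, at 1038 ± 221 against 1192 ± 129.

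Of 15 nuclear partners of beta-catenin, 1 was higher and 2 were lower, against 9.42% and 11.2% of all genes. The median was 0.09. Tcf7l1, a TCF factor that mostly represses, was higher at 1262 ± 76.4 against 872 ± 117 (0.53, adjusted p = 0.0276), and the Groucho corepressor genes Tle1 (-0.80, adjusted p = 0.0175) and Tle3 (-0.46, adjusted p = 0.0361) were lower. All 3 calls ended without single arrays: Tcf7l1 without GFP-positive replicate 2 or GFP-negative replicate 2 or 3, Tle1 without any 1 GFP-negative array, and Tle3 without any 1 array other than GFP-negative replicate 1. Without GFP-positive replicate 3 on each chip, Bcl9l, Pygo2 and Nlk were lower as well, and Tle3 was not. In that setting, 13.9% of all probe sets of chip A and 13.4% of those of chip B were lower. Bcl9l was the brightest that did not pass (0.05, adjusted p = 0.957).

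Of 28 secreted antagonists, R-spondins and Wnt ligands, 2 were lower and none was higher in limma, against 11.2% and 9.42% of all genes. At an unadjusted p under 0.05 these were 4 and 1, and the median was 0.01. Dkk3, which is also in the Müller glia list, read 14.4 ± 1.41 against 373 ± 73.6 (-3.66, adjusted p = 5.72e-05) and Frzb, a secreted Frizzled-related antagonist, 32.4 ± 5.06 against 128 ± 45.6 (-1.54, adjusted p = 0.00611). Without GFP-positive replicate 3, Sfrp1, Sfrp4 and Wnt3a were lower too, which made 5 of 28. All 5 lay on chip A, where 13.9% of all probe sets were lower in that setting. Wnt9b, the brightest that did not pass, differed by -0.07 (adjusted p = 0.675). Many others of the list read near or below the array medians, such as Wnt7a at 16.6 ± 1.89 against 18.8 ± 1.41, and may be background.

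Of 6 other genes linked to familial exudative vitreoretinopathy, 2 were higher and none was lower in limma, against 9.42% and 11.2% of all genes. At an unadjusted p under 0.05 these were 4 and 1, and the median was 0.38. The higher genes were the Notch ligand gene Jag1 at 215 ± 107 against 32.6 ± 11.6 (2.17, adjusted p = 0.00524) and the alpha-catenin gene Ctnna1 at 246 ± 69.2 against 71.8 ± 21.4 (1.58, adjusted p = 0.00757). Ctnnd1, the p120 catenin gene, did not pass at 380.5 ± 85.1 against 264 ± 8.23 (0.48, adjusted p = 0.102) and was higher without GFP-positive replicate 3 (0.64).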

How the data were processed

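The authors deposited 1 linear intensity for each probe set of the 1-colour Affymetrix MGU74v2 arrays, hybridised with amplified, biotin-labelled RNA per the labels' protocols. The probe summary, background correction and scaling are not given in the sources used here; another choice there could move any difference. Array medians of a chip lay close together, so the intensities were kept as deposited.

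Symbols came from the platform's annotation, and no probe set with several symbols was used. Each chip was fitted alone with lmFit and eBayes of limma 3.58.1, two-sided, under R 4.3.3, on the log2 of intensity plus 16, with Benjamini-Hochberg adjustment over all its probe sets and a threshold of 0.05, and with no replicate block. The fit was run on simulated data with independent noise on each array. This checked the computation and not the p-values of the real arrays. The members and lists were chosen with earlier results of these data known. All member probe sets are named; in each other list, up to 4 called genes in each direction and the brightest gene not called, taking for each gene the brightest probe set on the first chip that held it. The settings changed in turn were the pseudocount (1 and 64), quantile normalization, centring on array medians, probe sets with a mean of at least 50 in a population, limma-trend with robust eBayes, a replicate block, adjustment over the 3 chips, a threshold of 0.01, array weights, and each array left out. The number of arrays limits the precision. Figures were drawn with matplotlib 3.10.9.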

Additional observations from a re-analysis of the deposited data

How the results depend on the processing

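The counts of member probe sets that passed kept within 1.5 times on chips A and B under the alternatives run. With single arrays left out they ranged from 3 to 4 higher and stayed at 1 lower on chip A, stayed at 4 higher on chip B, and ranged from 0 to 1 higher on chip C. On chip C the count was also 1 higher with array weights, where Lrp6 passed. Array weights raised the calls in general. With them 2320 of 11868 probe sets of chip C were higher, against 403 in the main fit. On chip A these were 2155 of 12422, against 1129. Ndp and Apcdd1 on chip A, the 3 brighter Fzd4 probe sets, Lef1 103629_g_at and Axin2 on chip B passed under the alternatives run; the filter on dim probe sets removed Lef1 103629_g_at. Lef1 103628_at did not pass at a threshold of 0.01, nor did Lef1 111398_at, and the former did not pass with the replicate block (adjusted p = 0.0723). Whether equal replicate numbers mark paired arrays is not known. Same-numbered arrays correlated in their deviations from the group means by -0.37 to 0.29, which with 3 arrays per population cannot decide it. With the replicate block, 3 member probe sets on chip A and 4 on chip B were higher and 1 on chip A was lower. Of all probe sets, 843 of 12422 on chip A and 868 of 12411 on chip B were then higher, and 855 on chip A were lower. The dim Fzd4 probe set 95771_i_at also passed with limma-trend and with array weights, and 95772_r_at with array weights (adjusted p = 0.0322, over 0.0322 to 0.385 among all alternatives). The filter on dim probe sets gave no value for the members it removed. Signs turned for values that did not pass: Ndp on chip C was 0.0110 with quantile normalization and ranged from -0.0478 to 0.0010 with arrays left out, Ctnnb1 was -0.10 with array weights and ranged from -0.11 to 0.40, and Lrp5 ranged from -0.0645 to 0.0139. The difference of Fzd4 and Ndp within arrays kept its direction at 4.15 and 2.17 with pseudocounts of 1 and 64. A pseudocount of 1 moved the median of all probe sets on chip B to 0.14. Members near or below the array medians, among them Lrp5, Axin2 on chip A and Ndp on chip C, are limited by signal over background.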
